A study of Rattus norvegicus with 21 samples.

Results

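A set of 57 genes of the interferon response and of antigen presentation was described in rat insulinoma cells exposed to inorganic arsenic (iAs) or left untreated. The set held 45 listed symbols and every gene whose symbol begins with RT1-, the rat major histocompatibility complex. A gene was kept where its mean over the 9 mRNA libraries was at least 10 normalized counts, as it was for 39 of the 45 listed symbols and for 18 of 31 RT1 rows, out of 32750 rows in the table. The limit on the mean used the level of each gene and not its response to iAs. The listed symbols, however, were chosen with earlier results of these data known, so the choice was not blind to the response. No kept gene had a mean below 10 in either group.

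The cells were INS-1 832/13, an insulin-secreting clone from a rat insulinoma, a beta cell tumour, and all groups share this 1 clone. The untreated group had 4 mRNA libraries, and the exposed group 5 mRNA libraries from cells given 1 µM iAs for 24 h. No label says that replicates were cultured apart. The p-values here therefore rest on a spread among libraries that may be technical. Small RNA libraries from the study, which also covered cadmium and manganese, were not analysed here.

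Interferons are cytokines that signal through paired receptors, Ifnar1 with Ifnar2 for type I and Ifngr1 with Ifngr2 for type II, and the JAK kinases bound to them. The kinases activate STAT proteins, which with Irf9 bind interferon-stimulated response elements (ISRE) or, as dimers, gamma-activated sites (GAS) in the promoters of target genes. Among the targets are antiviral effectors and the machinery that cuts proteins, carries the peptides into the endoplasmic reticulum and loads them on class I molecules for display to T cells. Beta cells carry this pathway, and class I display on beta cells is a known feature of autoimmune diabetes.

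The column totals were 51009800 to 55869159 normalized counts, and values are counts per gene that the authors normalized with DESeq2. All untreated libraries were sequenced in lane 3 and all iAs libraries in lane 4, so lane and exposure cannot be told apart. Of 11 beta cell markers 10 were measured, with Ins1 between 1238006 and 2086082 normalized counts. Of these 10, limma called Nkx6-1 lower (-0.46 in log2) and Slc2a2 (0.53) and Chga (0.36) higher, and 7 were not called. Of all genes tested, 30% were called in either direction. Although a tissue label names liver, the hepatocyte gene Alb was at 0 in the untreated libraries and at most 2.01 in the iAs libraries, and Apoh was at 0 in all 9. Other genes of the hepatocyte list were measured, with Ass1 at 1266 to 1390, Tf at 1180 to 1336, Fgb at 493 to 702 and Serpina1 at 324 to 528 in the untreated libraries, and 5 of the 7 found had a mean of at least 10. Of 14 leukocyte markers only Cd4 and Cd68 had a mean of at least 10, and the defining gene Ptprc was at 0 in all 9 libraries. Cd4 (1.20 in log2, limma adjusted p = 0.0071) and Cd68 (0.83, limma adjusted p = 0.04997) were called higher. The summed leukocyte markers were 63.2 to 96.5 in the untreated and 104 to 172 in the iAs libraries, so this sum was higher where the genes described here were lower. The summed hepatocyte list moved with them, at 3308 to 3821 in the untreated and 2503 to 3016 in the iAs libraries, with Fgb (-1.34 in log2) and Ass1 (-0.45) called lower by limma. The summed fibroblast list was at 327 to 426 and 193 to 325, with Col1a1 (-1.98) called lower and Dcn and Lum at 0 throughout. The endothelial sum was 106 to 187 and 143 to 256. The part of these lists in the results was not tested. In bulk RNA, fewer cells of a type and less RNA per cell cannot be told apart.

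Genes of the interferon response and of class I antigen presentation were lower in iAs-exposed cells in most functional groups. Of the 57 genes, 39 fell (limma, adjusted p under 0.05), beside 14.9% of all 14410 genes tested that fell and 30% that were called in either direction. None rose in limma, beside 15.1% of all genes that rose. At an unadjusted p under 0.05 the number higher was also 0, beside 2962 of the 14410 genes tested. The median log2 difference, iAs minus untreated, was -0.58 over the 57 genes and -0.00070 over all genes tested. In 33 of the 57 every iAs library lay below every untreated library, beside 12.9% of all genes, and 9 fell at least 2-fold, beside 1.67%. Log2 differences here are on the log2(value + 1) scale.

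**Figure D1:**
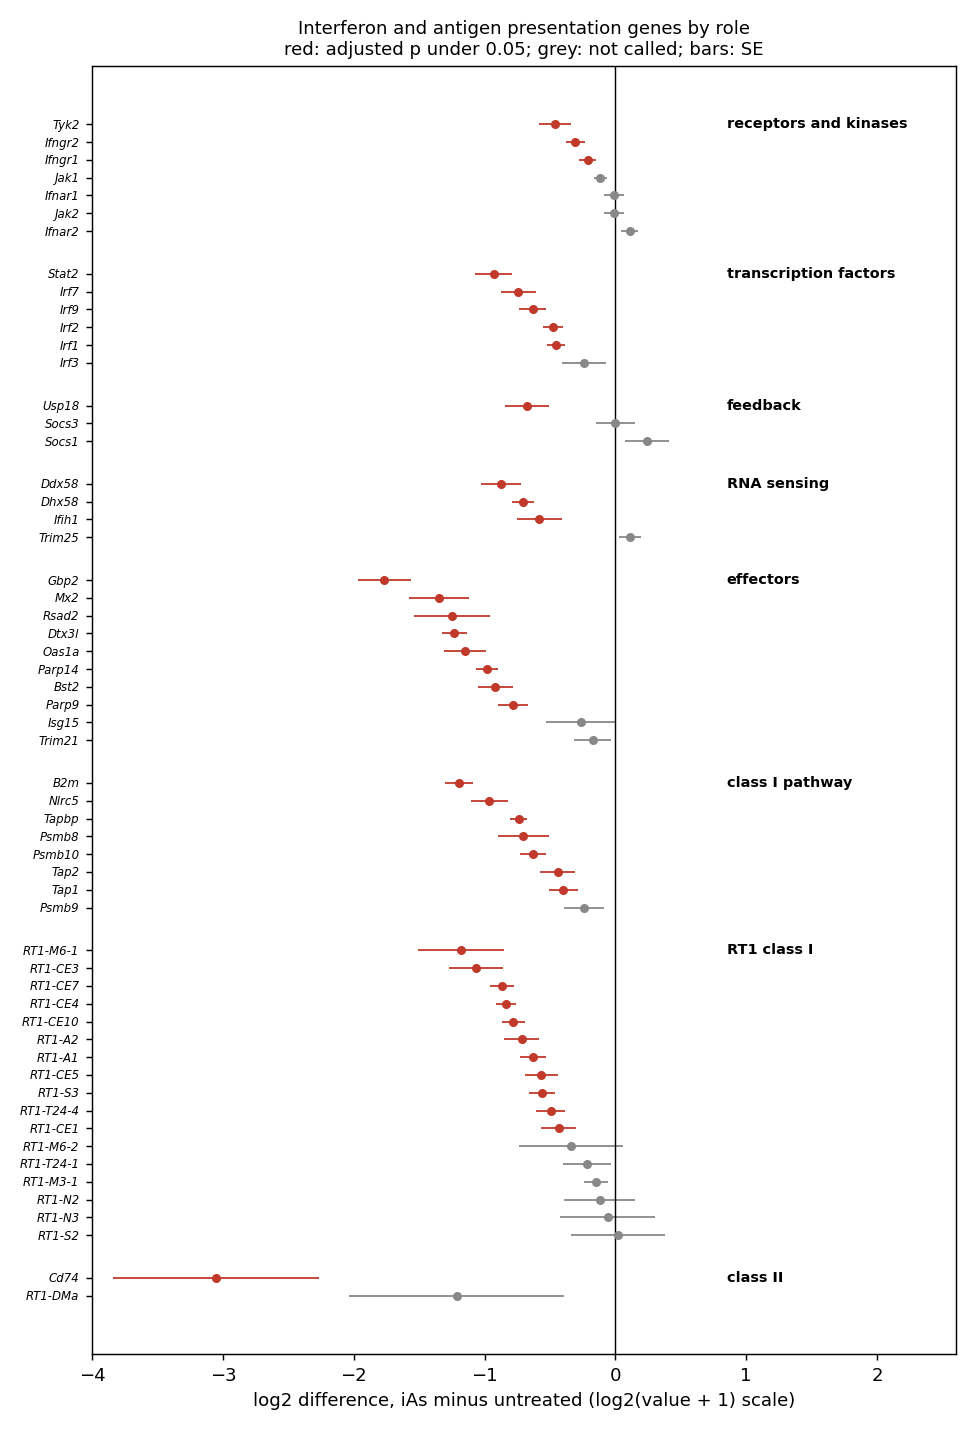
Log2 difference (iAs minus untreated, horizontal axis, with SE) of the 57 genes, grouped by role, with genes past the threshold in red. Effectors and class I genes lie to the left of 0, while Ifnar1, Ifnar2, Jak2, Socs1, Socs3 and Trim25 lie near or to the right of it.

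The promoters of 6 genes are printed because these genes fell with the smallest adjusted p among those whose promoter holds 1 of the 2 motifs searched. Each is the 250 bases before the annotated start of transcription, 5′ to 3′ on the strand of the gene, from RefSeq on GRCr8, and capitals mark every match. The motifs were the ISRE core, which is GAAA, any 2 bases and GAAA again, read on both strands and so also as TTTC, any 2 bases and TTTC, and the GAS element TTCNNNGAA, which reads the same on both strands. Adjacent matches can share bases.
Parp14, chr11:78407884-78408133, + strand: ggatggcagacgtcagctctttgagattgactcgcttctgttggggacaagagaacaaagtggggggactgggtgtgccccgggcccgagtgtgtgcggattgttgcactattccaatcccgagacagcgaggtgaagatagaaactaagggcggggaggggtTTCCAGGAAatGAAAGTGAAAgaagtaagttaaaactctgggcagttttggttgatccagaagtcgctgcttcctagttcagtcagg
B2m, chr3:129549080-129549329, + strand: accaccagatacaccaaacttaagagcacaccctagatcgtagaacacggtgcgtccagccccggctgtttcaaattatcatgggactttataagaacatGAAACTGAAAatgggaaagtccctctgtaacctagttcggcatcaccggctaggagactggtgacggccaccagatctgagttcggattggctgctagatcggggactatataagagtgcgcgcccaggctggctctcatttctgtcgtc
Tapbp, chr20:4967878-4968127, - strand: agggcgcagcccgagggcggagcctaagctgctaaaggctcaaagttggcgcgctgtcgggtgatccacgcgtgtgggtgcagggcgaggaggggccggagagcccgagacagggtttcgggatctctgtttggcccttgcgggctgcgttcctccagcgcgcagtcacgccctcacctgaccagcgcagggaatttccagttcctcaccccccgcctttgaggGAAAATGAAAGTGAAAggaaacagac
Gbp2, chr2:234005477-234005726, + strand: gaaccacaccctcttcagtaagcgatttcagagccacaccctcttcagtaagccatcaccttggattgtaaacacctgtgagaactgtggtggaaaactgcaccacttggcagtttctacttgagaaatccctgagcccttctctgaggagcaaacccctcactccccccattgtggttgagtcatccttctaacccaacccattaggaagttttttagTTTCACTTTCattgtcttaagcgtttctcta
Oas1a, chr12:41330216-41330465, + strand: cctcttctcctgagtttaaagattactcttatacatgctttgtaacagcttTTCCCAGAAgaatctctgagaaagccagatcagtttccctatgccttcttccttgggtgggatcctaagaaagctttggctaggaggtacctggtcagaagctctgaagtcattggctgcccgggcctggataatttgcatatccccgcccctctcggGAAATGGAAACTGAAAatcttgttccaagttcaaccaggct
Bst2, chr16:18254968-18255217, - strand: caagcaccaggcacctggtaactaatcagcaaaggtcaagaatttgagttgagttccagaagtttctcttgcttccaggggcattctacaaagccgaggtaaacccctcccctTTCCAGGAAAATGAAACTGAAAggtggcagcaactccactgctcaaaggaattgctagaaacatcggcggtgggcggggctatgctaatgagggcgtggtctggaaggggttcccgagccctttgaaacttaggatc

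In Parp14 a GAS element begins 87 bases before the start and an ISRE core 76 bases before it, and Bst2 has the same order, with a GAS element at 137 and overlapping ISRE cores at 131 and 125. Tapbp has ISRE cores at 26 and 20 bases and Oas1a at 41 and 35 bases before the start, each pair sharing 4 bases, and Oas1a also has a GAS element at 199. Gbp2 and B2m have 1 ISRE core each, at 31 and 150 bases. Of the 57 genes 47 matched a promoter by symbol. The ISRE core was in 17 of the 47 (36.2%), in 13 of 31 that fell and in 4 of 16 that were not called, beside 3.41% of all 33469 promoters of the table. The GAS element was in 9 of 47 (19.1%), beside 7.67%, in 6 of 31 that fell and in 3 of 16 that were not called. The genes that were not called and hold the ISRE core were Socs1, Trim21, RT1-N3 and RT1-S2. The genes were chosen as genes of this pathway, so the contrast with all promoters does not bear on the response to iAs. A match is a string of letters in this window and does not show that a factor binds there.

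Among the receptors and their kinases 3 of 7 genes fell (beside 14.9% of all genes), Tyk2, Ifngr2 and Ifngr1, and 4 were not called. The median log2 difference of the 7 was -0.12. Each series of values runs through the 4 untreated replicates and then the 5 iAs replicates, in order of their numbers. Ifnar1, a chain of the type I receptor, read 1281, 1285, 1445 and 1166 normalized counts against 1260.3, 1305, 1137, 1327 and 1392, and the groups overlapped throughout (log2 difference -0.01, SE 0.08, limma adjusted p = 0.94). Its partner chain gene Ifnar2 differed by 0.11 (limma adjusted p = 0.25). Ifngr1, the ligand-binding chain of the interferon gamma receptor, read 2505, 2169, 2395 and 2625 against 1987, 2007, 2059.7, 2227 and 2175 (-0.21, SE 0.07, limma adjusted p = 0.031). Only untreated replicate 2 fell within the iAs range for Ifngr1, and the call was lost when any one of 6 libraries (untreated 1, 3 or 4, or iAs 1, 2 or 3) was left out (limma adjusted p between 0.0614 and 0.125 over all alternatives that lost it). The second gamma receptor chain gene Ifngr2 fell without overlap, from 2916 ± 207 (SD, n = 4) to 2362 ± 179 (SD, n = 5). Tyk2, a kinase of the type I receptor, fell by 0.46 on the log2 scale, whereas Jak1, used by both receptors, differed by -0.12 (limma adjusted p = 0.11) and Jak2, a kinase of the gamma receptor, by -0.01.

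Most transcription factors of the pathway fell. Of 6 measured, 5 fell (beside 14.9% of all genes), and Irf3 did not pass the test. Each of the 5 fell without overlap between the groups (beside 12.9% of all genes). Stat2, which joins Irf9 in the complex that binds ISRE sites, read 1715, 1787, 1766 and 1442 normalized counts against 1013, 751, 1111, 653 and 937 (-0.93, SE 0.14, limma adjusted p = 5.3e-04). Irf9 itself read 611, 738, 664 and 585 against 471, 412, 397, 449 and 364 (-0.63, SE 0.10, limma adjusted p = 8.4e-04). The iAs means were thus 53.2% of the untreated mean for Stat2 and 64.5% for Irf9. Irf7, which amplifies type I interferon production, read 475, 351, 433 and 385 against 224, 273, 200.2, 283 and 247 (-0.74, SE 0.13, limma adjusted p = 0.0015). Irf1, an activator of class I and gamma-responsive genes, read 1821, 1981, 2021 and 2114 against 1544, 1531, 1474, 1369 and 1316 (-0.46, SE 0.07, limma adjusted p = 5.3e-04). In Irf1 the lowest untreated library was above the highest iAs library by a margin wider than the SD of either group, 122 and 101. Irf2, often an antagonist of Irf1, fell by 0.48. Irf3, the factor activated directly by nucleic acid sensors, differed by -0.24 with wide overlap (limma adjusted p = 0.32).

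Of the 3 feedback genes only Usp18, an ISG15 protease that restrains the type I receptor, fell (beside 14.9% of all genes). Usp18 went from 119 ± 13.7 (SD, n = 4) to 74.2 ± 9.82 (SD, n = 5), a log2 difference of -0.68 (limma adjusted p = 0.011). Its call was lost in 2 of the 19 alternatives (limma adjusted p between 0.0547 and 0.0563). The suppressors of cytokine signalling, which act on the JAK kinases, did not pass the test. Socs1 read 216, 215, 148 and 168 normalized counts against 171, 190.1, 259, 252 and 231 (0.24, SE 0.17, limma adjusted p = 0.31). Socs3 read 192, 208, 250.5 and 170.4 against 227, 214, 229, 173 and 180.1 (-0.00, SE 0.15). Both groups spanned nearly the same range for Socs3, and for Socs1 the 3 highest values were in iAs libraries.

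**Figure D2:**
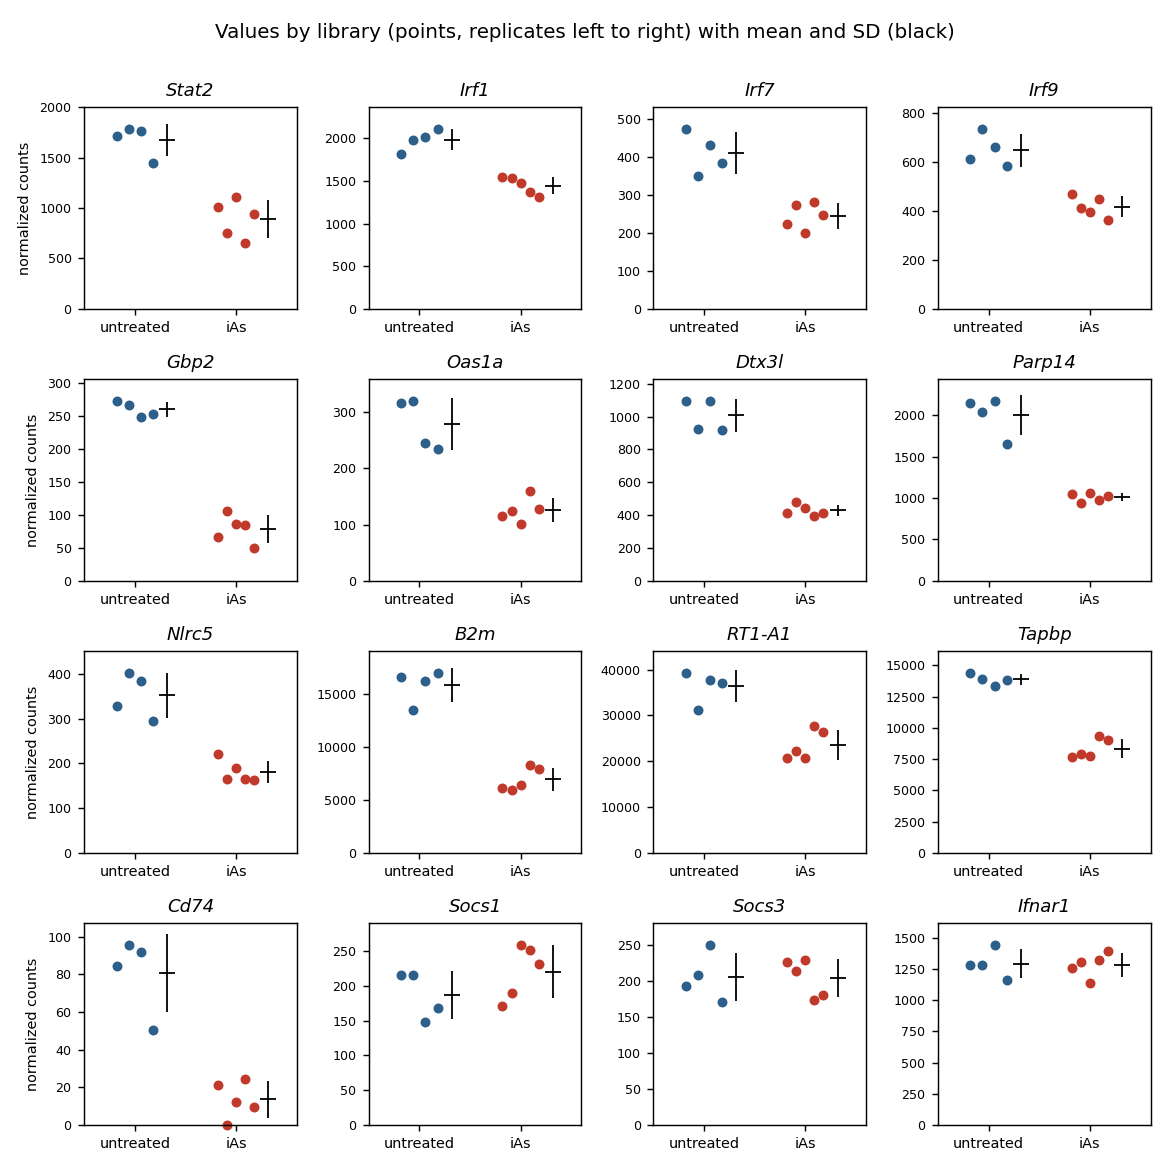
Normalized counts (vertical axes, starting at 0) of 16 genes in the 4 untreated (blue) and 5 iAs (red) libraries, with mean and SD in black. The groups separate for all genes shown except Socs1, Socs3 and Ifnar1, and B2m, RT1-A1 and Tapbp were highest among iAs libraries in replicates 4 and 5.

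The cytosolic RNA sensors fell together, and of the 4 genes of RNA sensing 3 fell (beside 14.9% of all genes). Ddx58, which encodes the sensor RIG-I, read 348, 372, 332 and 266 normalized counts against 133, 187, 194, 203 and 184 (-0.87, SE 0.15, limma adjusted p = 0.0012). Dhx58, which encodes the regulator LGP2, fell by 0.70 and Ifih1, which encodes the sensor MDA5, by 0.58. All 3 separated the groups, with the lowest untreated library above the highest iAs library (beside 12.9% of all genes). The call of Ifih1 (limma adjusted p = 0.025) was lost without untreated replicate 1 or 3 (limma adjusted p between 0.0730 and 0.0772). Trim25, the ubiquitin ligase that activates RIG-I, differed by 0.11 and was not called (limma adjusted p = 0.34).

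Antiviral and interferon-inducible effectors fell the most as a group, class II aside. Of 10 measured effectors 8 fell (beside 14.9% of all genes), all without overlap (beside 12.9%), and 5 of them at least 2-fold (beside 1.67%). The median log2 difference of the 10 was -1.07. Gbp2, a guanylate-binding GTPase, read 273, 266, 248 and 254 normalized counts against 65.8, 106, 86.1, 85.2 and 49.2 (-1.77, SE 0.20, limma adjusted p = 8.5e-05), and its iAs mean was 30.1% of the untreated mean. Mx2, a dynamin-like GTPase, read 305, 264, 245 and 142 against 114, 75.9, 70.5, 108 and 88.0 (-1.35, SE 0.23, limma adjusted p = 0.0011). Untreated replicate 4 was the lowest of its group for Mx2 and still above every iAs library. Rsad2, which encodes the radical enzyme viperin, read 95.4, 63.9, 78.2 and 87.7 against 33.4, 21.6, 44.8, 51.7 and 24.1 (-1.25, SE 0.29, limma adjusted p = 0.0066). Oas1a, an oligoadenylate synthetase, read 316, 319.9, 245 and 234 against 116, 125, 100.2, 159 and 127 (-1.15, SE 0.16, limma adjusted p = 3.1e-04). Oas1a belongs to a family of similar genes, so its share of reads is uncertain. Bst2, which encodes tetherin, a protein that holds budding virus at the cell surface, read 1260.3, 1032, 1274 and 1501 against 606, 772, 521, 731 and 727 (-0.92, SE 0.13, limma adjusted p = 3.4e-04).

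A trio of effectors that are neighbours in the RefSeq gene order of assembly GRCr8, Parp9, Dtx3l and Parp14, all fell. Dtx3l, a ubiquitin ligase that pairs with PARP9, read 1097, 926, 1095 and 918 normalized counts against 413, 478, 444, 395 and 415 (-1.23, SE 0.09, limma adjusted p = 5.7e-06), the smallest adjusted p of all 57 genes. Parp14, an ADP-ribosyltransferase, read 2155, 2041, 2177 and 1656 against 1051, 943, 1061, 982 and 1019 (-0.98, SE 0.08, limma adjusted p = 1.4e-05). Parp9 fell from 797 ± 134 (SD, n = 4) to 458 ± 29.7 (SD, n = 5), a log2 difference of -0.79. The spread among iAs libraries was small for all 3, with SDs of 29.7, 32.6 and 49.0.

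The effectors that did not pass the test were Isg15 and Trim21. Isg15, a ubiquitin-like modifier and a widely used marker of the type I response, read 121, 81.9, 104 and 59.5 normalized counts against 88.3, 63.4, 101, 46.8 and 82.2 (-0.26, SE 0.27, limma adjusted p = 0.50). Its untreated values alone spanned 59.5 to 121, a range that holds all but 1 of the iAs values. Trim21, a cytosolic antibody receptor, differed by -0.17 (limma adjusted p = 0.38).

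The class I pathway fell at most of its steps, from its transcriptional coactivator to the light chain of the displayed molecule. Of 8 genes 7 fell (beside 14.9% of all genes), with a median log2 difference of -0.67. Nlrc5, the coactivator of class I genes, read 327, 402, 384 and 294 normalized counts against 220.2, 165, 189, 165 and 162 (-0.96, SE 0.14, limma adjusted p = 3.5e-04). B2m, which encodes beta-2 microglobulin, the light chain of every class I molecule, read 16579.8, 13450.5, 16145 and 16969.8 against 6128, 5922, 6431, 8289.9 and 7883 (-1.20, SE 0.11, limma adjusted p = 1.7e-05). The iAs mean of B2m was 43.9% of the untreated mean. Tapbp, which encodes tapasin, the chaperone that bridges class I molecules and the peptide transporter, read 14409, 13900.4, 13383 and 13819 against 7627, 7937, 7757, 9306 and 9041 (-0.74, SE 0.07, limma adjusted p = 1.7e-05). For Nlrc5, B2m and Tapbp the groups did not overlap (beside 12.9% of all genes).

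Peptides reach class I molecules through the proteasome and a transporter. Tap1, Tap2, Psmb8 and Psmb9 follow each other in the RefSeq gene order. Tap1 and Tap2 form the transporter that carries peptides into the endoplasmic reticulum. Tap1 read 1143, 879, 1199 and 1061 normalized counts against 797, 725, 706, 929 and 897 (-0.40, SE 0.11, limma adjusted p = 0.018). Tap2 read 690.2, 520.1, 721 and 569 against 524, 476, 349, 469 and 483 (-0.44, SE 0.13, limma adjusted p = 0.027). Untreated replicate 2 was the lowest of its group for both and lay within the iAs range. Without untreated replicate 1 or 3 both calls were lost (limma adjusted p between 0.0558 and 0.0907 over the alternatives that lost either).

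Psmb8, Psmb9 and Psmb10 encode the catalytic subunits that turn the constitutive proteasome into the immunoproteasome. Psmb10 read 4194, 3049, 3587 and 3386 normalized counts against 1951, 2273, 2177, 2598 and 2458 (-0.63, SE 0.10, limma adjusted p = 6.5e-04), without overlap. Psmb8 read 409.7, 293, 408 and 338 against 182, 223, 155, 316 and 259 (-0.70, SE 0.20, limma adjusted p = 0.018), and its call was lost without untreated replicate 1 or 3 (limma adjusted p between 0.0533 and 0.0569). Psmb9 read 448, 356, 463 and 368 against 303, 309, 287, 451 and 397 (-0.24, SE 0.15, limma adjusted p = 0.26). In Psmb9 the first 3 iAs replicates were below all untreated libraries while replicates 4 and 5 were within their range. The constitutive subunits that they replace, Psmb5, Psmb6 and Psmb7, differed by -0.04, -0.08 and 0.07 in log2 and none was called (limma adjusted p = 0.64, 0.35 and 0.53, and 0 of 3 at an unadjusted p under 0.05). Whether an immunoproteasome subunit differed more than its counterpart was not tested.

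**Figure D3:**
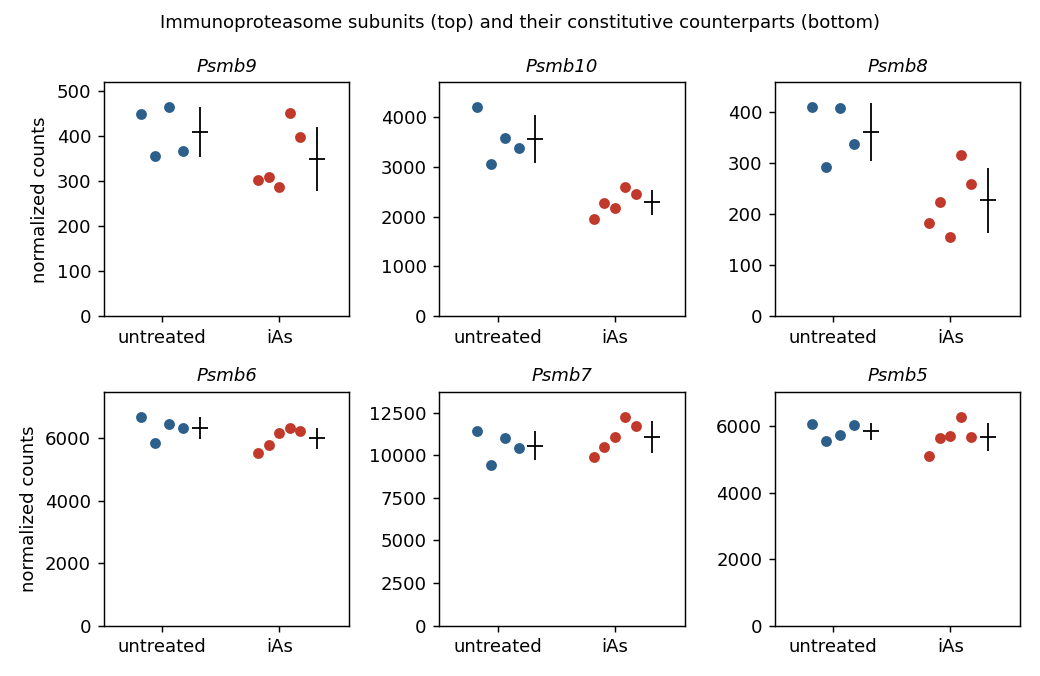
Normalized counts (vertical axes, starting at 0) of the immunoproteasome genes Psmb9, Psmb10 and Psmb8 (top) and of their constitutive counterparts Psmb6, Psmb7 and Psmb5 (bottom) in untreated (blue) and iAs (red) libraries, with mean and SD. Psmb10 separates the groups, and the counterparts overlap.

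The class I heavy chain genes of the RT1 complex fell in 11 of 17 measured rows (beside 14.9% of all genes). Of the 11, 10 did not overlap between the groups (beside 12.9%). In RT1-CE1 the groups nearly touched, with the lowest untreated library at 666.17 and the highest iAs library at 666.08 normalized counts. The median log2 difference of the 17 rows was -0.56. These genes are near copies of each other and vary between rat strains, so the split of reads between rows is uncertain, and the rows are not independent. Summed over all 21 class I rows, the level was 61050.0, 50747, 58841 and 55853 normalized counts in the untreated libraries and 32752, 34048, 32475, 42442 and 41083 in the iAs libraries. The sum does not depend on the split between these rows, its groups did not overlap, and its iAs mean was 64.6% of the untreated mean. RT1-A1, a classical class I gene, held 61.6% to 66.5% of that sum in each library.

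RT1-A1 fell from 36376 ± 3546 (SD, n = 4) to 23574 ± 3244 (SD, n = 5), a log2 difference of -0.63 (limma adjusted p = 6.3e-04). Its classical neighbour RT1-A2 fell by 0.72. Among the rows of the RT1-CE region, RT1-CE4 read 3721, 3317, 3488 and 3443 normalized counts against 1913, 1739, 1853, 2216 and 2088 (-0.84, SE 0.07, limma adjusted p = 1.6e-05). RT1-CE7 read 2502, 2534, 2384 and 1936 against 1247, 1124, 1259, 1428 and 1346 (-0.86, SE 0.09, limma adjusted p = 5.4e-05). RT1-CE3 read 425, 454, 406 and 428 against 196, 129.9, 187, 233 and 318 (-1.07, SE 0.20, limma adjusted p = 0.0022). The untreated values of RT1-CE3 lay close together (SD 19.9) and the iAs values were more spread (SD 69.5). RT1-CE10, RT1-CE5 and RT1-CE1 fell by 0.78, 0.57 and 0.43, the last without its call when any one of 5 libraries (untreated replicates 1 and 3, iAs replicates 1, 2 and 3) was left out.

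Outside these, RT1-S3 and RT1-T24-4 fell by 0.56 and 0.50, and the call of RT1-T24-4 was lost in 1 alternative (limma adjusted p = 0.0604). RT1-M6-1 read 60.6, 43.8, 72.1 and 51.5 normalized counts against 48.2, 22.4, 25.5, 17.0 and 17.4 (-1.18, SE 0.33, limma adjusted p = 0.017), and iAs replicate 1 lay within the untreated range. The call of RT1-M6-1 was lost without untreated replicate 3, and limma adjusted p was between 0.0503 and 0.0821 over the alternatives that lost it. The 6 class I rows that were not called were RT1-M6-2, RT1-T24-1, RT1-M3-1, RT1-N2, RT1-N3 and RT1-S2, with log2 differences between -0.34 and 0.02. RT1-S2 ran from 79.4 to 220.0 in the untreated and from 79.0 to 245 in the iAs libraries.

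Class II display is normally a property of professional antigen-presenting cells. Of the 12 rows of its genes, Cd74, Ciita and the 10 RT1 class II rows, only Cd74 and RT1-DMa had a mean of at least 10. Cd74, the invariant chain that guides class II molecules, read 84.4, 95.8, 92.0 and 50.6 normalized counts against 21.2, 0, 12.4, 24.5 and 9.59. The groups did not overlap, and the log2 difference was -3.05 (SE 0.79, limma adjusted p = 0.012), or -2.24 without iAs replicate 2, the library at 0. Its iAs mean was 16.8% of the untreated mean. RT1-DMa, which helps to load class II molecules, spread from 54.3 to 232 in untreated and from 4.41 to 132 in iAs libraries and was not called (-1.21, limma adjusted p = 0.30).

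The genes below a mean of 10 are given here as values. They were tested, if at all, only in the alternative without this limit, described below. Ciita, the coactivator of class II genes, read 5.65, 17.8, 4.07 and 4.92 normalized counts against 0, 0, 1.18, 2.87 and 0. RT1-Da, a class II chain gene, was at 8.54 to 15.6 in the untreated and at 0 to 2.80 in the iAs libraries, and its mean of 5.59 lay just below the limit. Gbp5 was at 5.70 to 11.5 in the untreated and 0 to 4.31 in the iAs libraries. For these 3 genes every iAs library lay below every untreated library, at levels of a few reads. Mx1, with a mean of 8.35 the row nearest to the limit from below, overlapped between the groups. The nearest gene above the limit was RT1-M6-2, at 12.9 to 35.7 in all libraries. Irf8 and Ifit2 were above 0 in 1 library each and Ifit3 in none. The other 12 RT1 rows below the limit had means of at most 3.44 normalized counts, and RT1-Bb, RT1-Db2 and RT1-Ha were at 0 throughout.

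**Figure D4:**
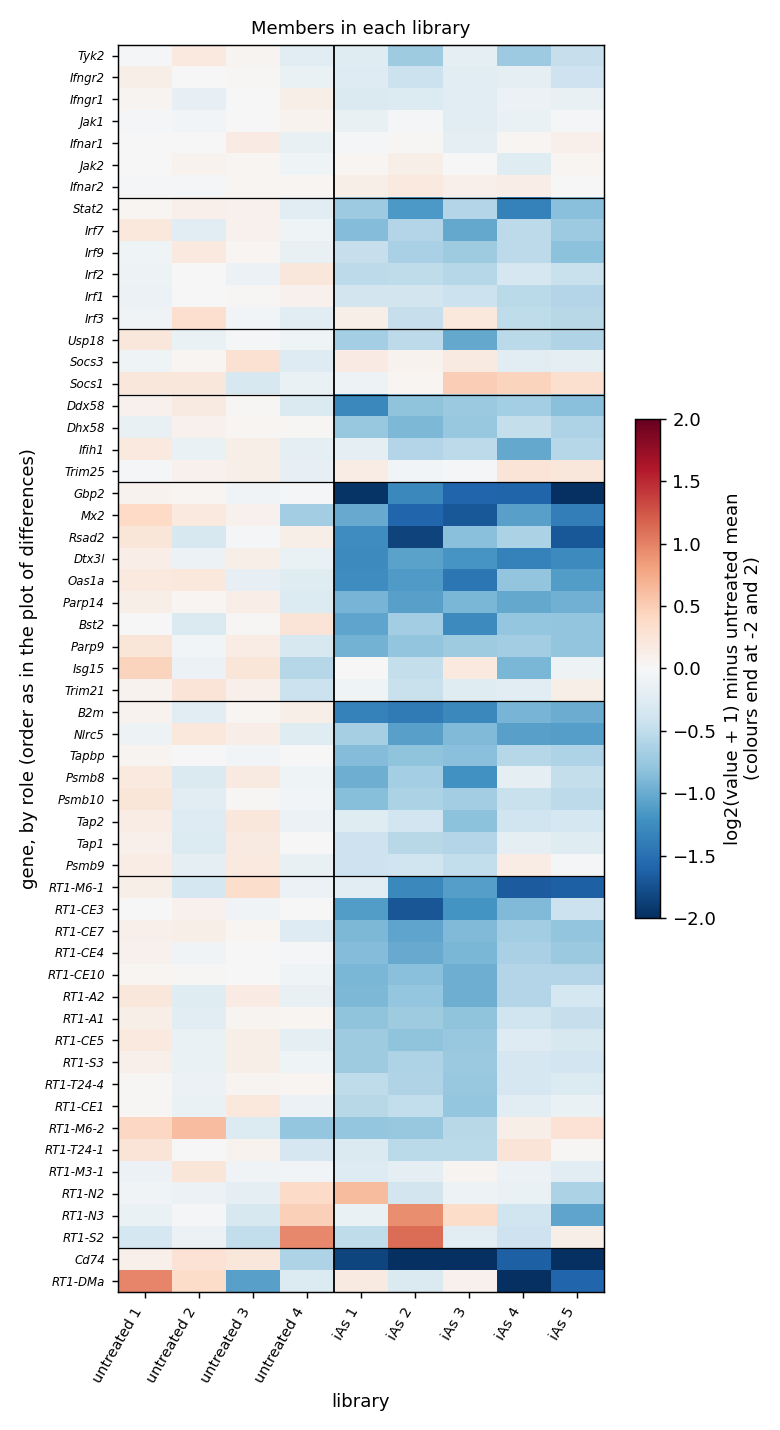
Each of the 57 genes (rows, by role) in each of the 9 libraries (columns), as log2(value + 1) minus the mean of the untreated libraries, with colours ending at -2 and 2. The iAs columns are blue for most effectors and class I genes, and paler in iAs replicates 4 and 5 for many RT1 class I rows.

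Other genes of the pathway came from lists of genes outside the 57. These lists were drawn up with earlier results of these data known, so they are no independent support for the falls above. Of 51 measured interferon-stimulated genes (76 listed) 29 fell and 2 rose, beside 14.9% and 15.1% of all genes. The median log2 difference of the 51 was -0.40. The chemokine genes Cxcl10 (-3.71) and Cxcl11 (-2.24), which attract T cells, and the oligoadenylate synthetase-like gene Oasl2 (-2.27) fell most clearly. The interferon-inducible GTPase genes Irgm (-1.21) and Ifi47 (-1.24) fell as well, as did Ifi27 (-0.53). The 2 that rose, named after their values were seen, were Isg20 (0.20), an RNA exonuclease gene, and Trim14 (0.30).

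Of 15 measured sensing and adaptor genes (25 listed) 5 fell and 0 rose in limma, beside 14.9% and 15.1% of all genes. At an unadjusted p under 0.05, 1 gene was higher, beside 2962 of all 14410 genes. Tmem173, which encodes STING, the adaptor of cytosolic DNA sensing, fell from 3552 ± 555 (SD, n = 4) to 825 ± 88.9 (SD, n = 5), a log2 difference of -2.10 (limma adjusted p = 7.8e-07). Mavs, the adaptor of the RNA sensors, fell by 0.43, the kinase gene Tbk1 by 0.33 and Nlrx1, a mitochondrial regulator, by 0.50. Myd88, the adaptor of most Toll-like receptors, fell by 0.32 (limma adjusted p = 0.043), but its call was lost in 12 of the 19 alternatives (limma adjusted p between 0.0521 and 0.143). It was lost without untreated replicates 1, 3 or 4 and without iAs replicates 1, 2 or 3.

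Of 23 measured further JAK-STAT genes (29 listed) 6 fell and 2 rose, beside 14.9% and 15.1% of all genes. Those that fell were Stat6 (-0.78), a mediator of interleukin-4 signalling, the cytokine receptor kinase gene Jak3 (-0.66), Stat5a (-0.44), the feedback gene Cish (-0.39), the tyrosine phosphatase gene Ptpn6 (-0.36) and Pias4 (-0.31). The 2 that rose, named after their values were seen, were Ptpn11 (0.15) and Pias3 (0.20). At 26.1% lower, this list lay nearer to the 14.9% of all genes than the effectors did.

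Of 25 measured accessory genes of class I and class II presentation (28 listed) 9 fell and 3 rose, beside 14.9% and 15.1% of all genes. Tapbpl, a tapasin-related peptide editor, fell from 4418 ± 237 (SD, n = 4) to 2595 ± 223 (SD, n = 5), a log2 difference of -0.77 (limma adjusted p = 1.6e-05). Psme1 (-0.35) and Psme2 (-0.49), which form the interferon-inducible proteasome activator, Erap1 (-0.42), which trims peptides, and Rfx5 (-0.35), a promoter factor of class I and II genes, fell. The protease genes Ctsl (-0.72) and Lgmn (-0.37) and the thiol reductase gene Ifi30 (-0.28), which act in endosomes, also fell. The general folding factors of class I molecules were not called, with Calr at 0.07, Canx at 0.06 and Pdia3 at -0.07. The genes that rose were Nfyb (0.40), Creb1 (0.47) and Cd40, a costimulatory receptor gene, which went from 22.8 ± 5.49 (SD, n = 4) to 80.6 ± 34.1 (SD, n = 5), a log2 difference of 1.72 (limma adjusted p = 0.0015).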

How the data were processed

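Polyadenylated mRNA of 4 untreated and 5 iAs libraries, prepared with a Kapa mRNA kit per the labels' protocols, was analysed. The authors deposited a normalized signal for each gene, in which reads had been scaled with DESeq2 factors, so that values are not whole numbers. The submitters' processing notes name DESeq2, STAR, Salmon and the build rn6, without versions or roles. Table columns were assigned through the code that each sample's description carries, which in 4 libraries is not the code in the title, although the group is the same.

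Differences were fitted in R 4.3.3 by limma 3.58.1, with an intensity trend, on log2(value + 1) over the 14410 of 32750 genes with a mean of at least 10, with Benjamini-Hochberg adjustment over all of them and a threshold of 0.05. The fit was tested on simulated data. Values of all libraries are given for genes past the threshold with an absolute log2 difference of at least 0.8 and for a fixed set of 19 genes. Of each list of further pathway genes, up to 6 with the smallest adjusted p are named. Creb1, Calr, Canx and Pdia3 were named after their values were seen. The genes and lists were chosen with earlier results of these data known. Promoters came from RefSeq on GRCr8, which is not the build of the files, and only 250 bases before the start were searched. Alternatives covered the pseudocount, filters, scaling, the trend, library code endings, a replicate block and each library left out.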

Additional observations from a re-analysis of the deposited data

Results flagged for a closer look

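In 114 groups (57 genes in 2 groups of libraries), 5 had 1 library far from the rest of its group by Dixon's ratio, and chance gives about 1 in 20. Ddx58 was lowest in iAs replicate 1, at 133 normalized counts. RT1-M6-1 was highest in the same library, at 48.2. RT1-M3-1 was highest among untreated libraries in replicate 2, at 1155. RT1-S2 was highest in untreated replicate 4, at 220.0, and in iAs replicate 2, at 245. Both of these libraries share the ending of their library code.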

How the results depend on the processing

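Of the 39 genes that fell, 30 were called lower in each of the 19 alternatives that tested them. Ifih1, Ifngr1, Psmb8, RT1-CE1, RT1-M6-1, RT1-T24-4, Tap1, Tap2 and Usp18 lost their call in at least 1. The count of falls ran from 32 to 40 with the limit on the mean in place and was 42 without it, where Ciita, Gbp5 and RT1-Da, outside the 57, were called lower as well. It was 32 to 39 with 1 library left out, and was 32 within the libraries of code ending 52 (2 untreated, 3 iAs). No member rose in any alternative. Jak1 was called lower after rescaling to equal totals or quantile normalization. Same-numbered libraries did not deviate together (correlations of -0.0406 to 0.0313). Over all pairs of an untreated and an iAs library the largest correlation was 0.174, between untreated replicate 4 and iAs replicate 2. With a replicate block, which leaves iAs replicate 5 without a partner, the falls numbered 35, all genes 1351 higher and 1410 lower, and the rises among other interferon-stimulated genes and other JAK-STAT genes 0 each. Leaving out untreated replicate 4 and iAs replicate 2, which share a library code ending, was chosen after seeing the data and gave 35 falls. Rescaling to equal totals moved the median of all genes to -0.03 in log2 and the split of all genes to 1787 higher and 2528 lower.

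Rises among other interferon-stimulated genes numbered 1 without a filter, 1 with equal totals, 1 without the intensity trend and 1 within code ending 52, and 1 to 2 with 1 library left out. Rises among sensing genes numbered 1 within code ending 52 and 0 to 1 with 1 library left out. Rises among other JAK-STAT genes numbered 0 with equal totals, 1 without the trend, 5 with the code ending as a covariate, 0 within code ending 52, and 1 to 2 with 1 library left out. Log2 differences of 6 genes that did not pass the test changed sign. Socs3 was at 0.043 with the replicate block, 0.00073 with the code ending as covariate and -0.085 to 0.099 with 1 library left out. RT1-N2 was at 0.0088 with the block, 0.085 within code ending 52, 0.069 without the pair of libraries named above and -0.31 to 0.0088 with 1 left out. RT1-N3 was at 0.19 with the block, 0.026 with the covariate and -0.31 to 0.19 with 1 left out. RT1-S2 was at -0.012 with equal totals, -0.0012 with the block and -0.25 to 0.34 with 1 left out. Ifnar1 was at -0.059 to 0.044 and Jak2 at -0.039 to 0.053 with 1 left out. The cause of these changes was not tested. Depth limits the genes with a mean below 10.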

Other observations

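The iAs libraries did not lie evenly among themselves, a pattern seen after the values were known. In 18 of the 25 genes of the class I pathway and RT1 class I, iAs replicates 4 and 5 were the 2 highest iAs libraries, as they were in 24 of all 57 genes. In the untreated group, replicate 2 was the lowest library for 13 of the 25. The column totals were highest in iAs replicates 4 and 5, at 55869159 and 55237788 normalized counts, and lowest in untreated replicate 2, at 51009800. The insulin gene Ins1 was also highest among iAs libraries in replicates 4 and 5, at 1695258 and 1753897 normalized counts, and lowest among untreated libraries in replicate 2, at 1579187. Iapp was likewise highest in these 2 iAs libraries, at 141367 and 135853. Other beta cell genes ran the other way. Ins2 (18158 and 18170), Slc2a2 (24436 and 24326) and Chga (837541 and 825853) were lowest among iAs libraries in replicates 4 and 5. So were Nkx6-1 and Pdx1, while Slc30a8, Mafa and Neurod1 followed neither order. For B2m, Tapbp, RT1-A1 and Psmb10 even these 2 iAs libraries stayed below every untreated library. Their part in the results was not tested.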
